A study of Mus musculus with 11 samples.

Results

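The question was how a ketogenic diet changes the mRNAs that astrocytes of the hippocampus hold on their ribosomes. The comparison set all 4 ketogenic arrays against all 4 fed arrays, which are 8 of the 11 arrays of the series, over 20259 genes. Ketogenic mice ate a diet high in fat and low in carbohydrate for 4 weeks, and fed mice ate normal chow for the same 4 weeks. Mice of both groups carried Ribo-Tag, an epitope-tagged ribosomal protein, switched on by Aldh1l1-Cre, which is active in astrocytes. Tagged ribosomes were pulled down from dissected hippocampus, and the mRNA bound to them was hybridized to Affymetrix mouse exon arrays. The labels give each array a biological sample number within its diet but no details of the animals behind it, so the p-values measure only the spread between these samples. The study describes the mice as adult, and their sex and strain are not given in the sources used here. The other 3 arrays came from fasted mice, and they enter the p-values below through a shared estimate of spread, although their values are not reported. Values are log2 expression values, and a log2 difference is always ketogenic minus fed, so that a negative value means a lower level on the ketogenic diet.

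Astrocytes take up glutamate and potassium released by neurons, line blood vessels with endfeet, store glycogen and make much of the lipid that the brain uses. On a ketogenic diet the liver makes ketone bodies from fatty acids, and the brain burns them in place of part of its glucose. Astrocytes are among the brain cells that can oxidize fatty acids. Etnppl encodes ethanolamine phosphate phospholyase, a lyase that consumes phosphoethanolamine, which cells otherwise use to build the membrane lipid phosphatidylethanolamine.

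Most genes that passed the test were lower on the ketogenic arrays, led by Etnppl and by Itih3, which encodes a secreted hyaluronan-binding protein. Of the 20259 genes tested, 179 passed an adjusted p of 0.05 (0.884%), 155 of them lower (0.765%) and 24 higher (0.118%) on the ketogenic diet. The test was limma's moderated test with Benjamini-Hochberg adjustment over all genes, and every adjusted p below comes from it unless another is named. The falls had a median log2 difference of -0.63 and ran to -1.57, with 10 genes lower by at least 2-fold. The rises had a median of 0.50 and ran to 0.99, and 0 were as large as 2-fold. At an unadjusted p under 0.05 the directions were more even, with 1323 genes lower (6.53%) and 1497 higher (7.39%), and over all genes the median log2 difference was 0.01, with 46.5% of genes below 0. In all 179 genes the ketogenic and fed arrays did not overlap, which held for 10.7% of all genes. Counts given below for a list, whether past the threshold, at an unadjusted p or without overlap, are to be read against these shares.

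**Figure D1:**
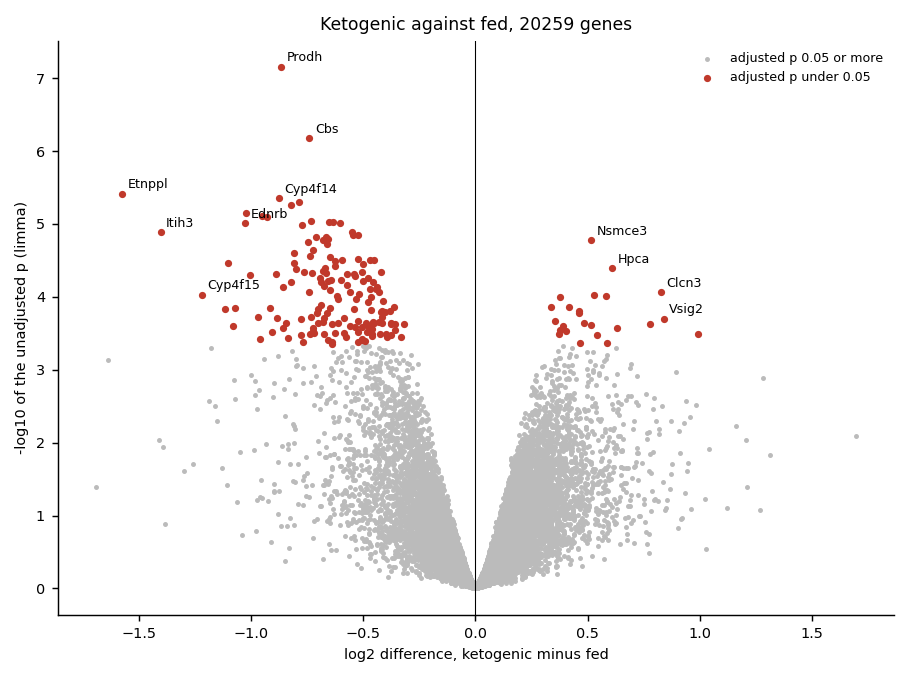
Log2 difference, ketogenic minus fed (x axis), against -log10 of the unadjusted limma p (y axis) for each of 20259 genes, with the 179 past an adjusted p of 0.05 in red and 11 of them named. Most red points lie left of 0, with Etnppl farthest to the left at -1.57 and Prodh highest.

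The number of genes past the threshold turned on the arrays used. It was 79 when the fasted arrays were left out of the fit. With single arrays left out it was 2 without ketogenic array 1, 1 without ketogenic array 2, 2 without ketogenic array 4 and 170 without ketogenic array 3. Without fed arrays 1, 2, 3 and 4 it was 95, 125, 48 and 49. Prodh, which starts the breakdown of proline, passed in all 8 of these fits, and Cbs, the first enzyme of transsulfuration, passed in all but that without ketogenic array 2 (adjusted p = 0.054). All other genes described below as fallen or risen lost their call in each of the fits without ketogenic array 1, 2 or 4. A further 29 of the 179 passed in 5 of the 8 fits, 122 in 1 to 4 and 26 in 0. For each gene named as past the threshold, the log2 difference itself kept its sign and moved by less than 1.5 times in all 8. Fed array 2 stood apart from the others, with a mean correlation of 0.970 with the other arrays, where the remaining ketogenic and fed arrays had 0.984 to 0.986.

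**Figure D2:**
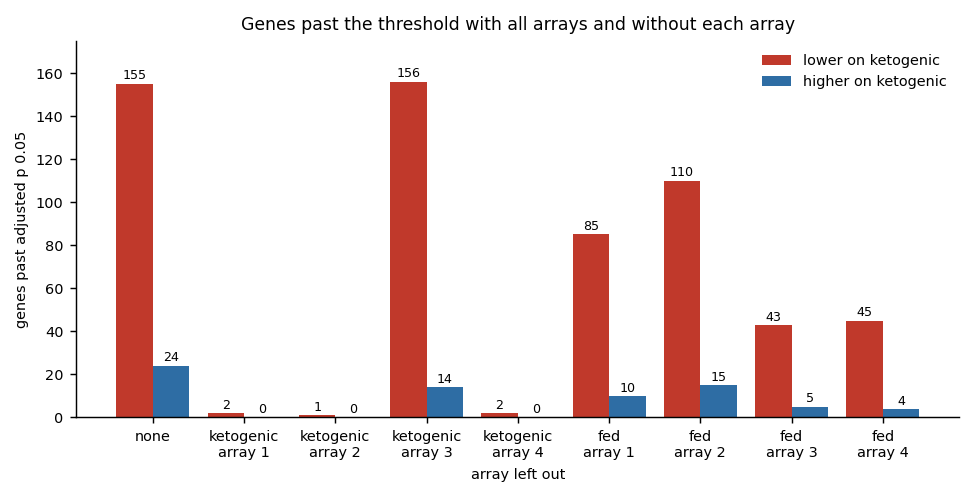
Number of genes past an adjusted p of 0.05 (y axis, from 0) with all arrays and after leaving out each ketogenic or fed array (x axis), lower on ketogenic in red and higher in blue. With all arrays 155 genes were lower and 24 higher, and without ketogenic array 1, 2 or 4 at most 2 were lower and 0 higher.

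Etnppl had the largest fall of all genes that passed. It read 5.02, 4.69, 4.75 and 4.87 on ketogenic arrays 1 to 4, against 6.06, 6.02, 6.84 and 6.70 on fed arrays 1 to 4. All 4 ketogenic arrays lay below the lowest fed array, and the fed arrays formed a lower pair and a higher pair. The log2 difference was -1.57 (standard error 0.19, 95% confidence interval -1.98 to -1.16, adjusted p = 0.0138), a level 2.97-fold lower. Across the 8 fits that left out 1 array the adjusted p ran from 0.0139 to 0.0674, and it stayed under 0.05 in 5 of them. Gpam, the mitochondrial enzyme that starts glycerolipid synthesis, was the only other gene of the list of glycerophospholipid and triglyceride metabolism to pass. Its values were 6.62, 6.58, 6.84 and 6.56 on ketogenic arrays, against 7.37, 7.61, 7.28 and 7.48 on fed arrays (log2 difference -0.79, standard error 0.10, adjusted p = 0.0138). The 29 measured genes of that list had a median of -0.07, which was -0.04 without ketogenic array 3 and -0.04 without ketogenic array 4. In this list, 3 genes of phosphatidylethanolamine synthesis differed little. The ethanolamine kinase Etnk1 had a log2 difference of 0.10 (standard error 0.09), the next enzyme Pcyt2 -0.09 (0.09) and the phosphotransferase Cept1 -0.11 (0.09). Their adjusted p were 0.657, 0.714 and 0.611. These 3 were named after their values were seen, and Etnk2 and Pisd, synthesis genes of the same list, were not measured.

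**Figure D3:**
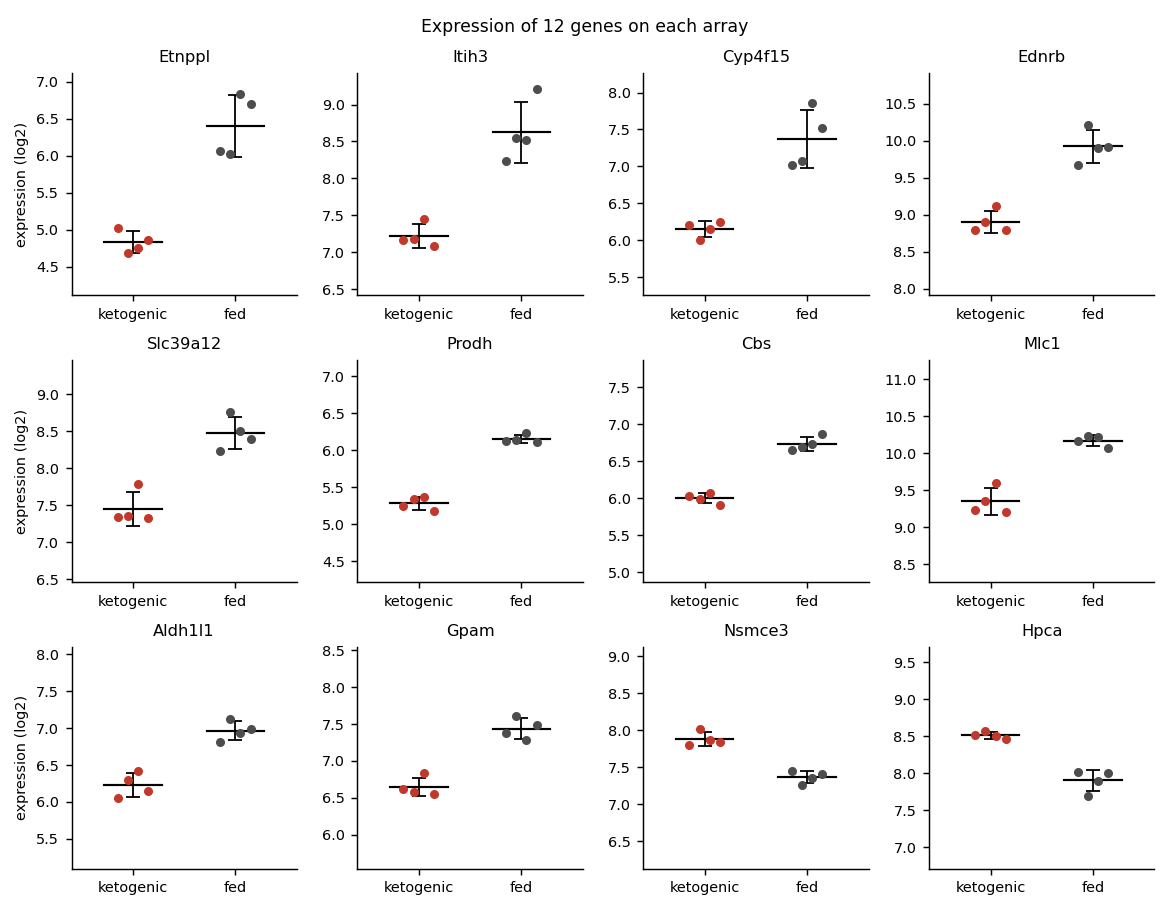
Log2 expression (y axis) of 12 genes on each of 4 ketogenic and 4 fed arrays (points, in array order from left to right), with the mean (long line) and SD (error bar). All panels span the same range. Etnppl averaged 4.83 ± 0.15 on ketogenic and 6.40 ± 0.42 on fed arrays. All 12 genes passed the threshold, and as in every such gene the groups do not overlap.

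Markers of astrocytes were lower as a whole on the ketogenic arrays. The mean over the 20 measured astrocyte markers was 7.79, 7.93, 8.05 and 7.86 on ketogenic arrays 1 to 4, against 8.30, 8.40, 8.43 and 8.41 on fed arrays 1 to 4. The highest ketogenic array lay below the lowest fed array. All 20 had a negative log2 difference, with a median of -0.41 (between -0.48 and -0.39 when 1 array was left out), and 8 of the 20 passed, all of them lower. Aldh1l1, a folate enzyme and the source of the Cre driver, read 6.05, 6.30, 6.42 and 6.15 on ketogenic arrays, against 6.81, 7.12, 6.93 and 6.98 on fed arrays (log2 difference -0.73, standard error 0.10, adjusted p = 0.0138). Mlc1, a membrane protein of astrocyte endfeet, read 9.24, 9.35, 9.60 and 9.20 on ketogenic arrays, against 10.16, 10.23, 10.21 and 10.08 on fed arrays (-0.82, standard error 0.10, adjusted p = 0.0138). Ketogenic array 3 was the highest of its group for both. Slc1a3, which encodes the glutamate transporter GLAST, read 10.72, 10.78, 10.94 and 10.70 on ketogenic arrays, against 11.41, 11.43, 11.50 and 11.43 on fed arrays (-0.66, standard error 0.09, adjusted p = 0.0141). The gap junction gene Gjb6 (-0.74), the growth factor receptor gene Fgfr3 (-0.63), the receptor gene Gpr37l1 (-0.54), the bicarbonate transporter gene Slc4a4 (-0.42) and the urea transporter gene Slc14a1 (-0.67) were the other markers that fell, and Slc14a1 was named after its values were seen. The number of markers past the threshold was 0 without ketogenic array 1, 2 or 4, 4 without fed array 3, 5 without fed array 4, and between 8 and 10 without any one of the others. In a pull-down from whole tissue, fewer astrocyte ribosomes and less of a given mRNA per astrocyte cannot be told apart. Nor can either be told apart from more mRNA of other cells carried over into the pull-down.

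Classic astrocyte markers that did not pass were negative too. Aqp4, the water channel of endfeet, read 6.50, 6.62, 6.72 and 6.64 on ketogenic arrays, against 6.98, 7.51, 7.19 and 7.19 on fed arrays (log2 difference -0.60, adjusted p = 0.0614). Gfap, the intermediate filament of astrocytes, read 7.48, 7.57, 8.02 and 7.62 on ketogenic arrays, against 8.01, 8.03, 8.01 and 8.17 on fed arrays (-0.39, adjusted p = 0.159), with ketogenic array 3 inside the fed range. Gja1, the main astrocyte connexin, lay near background on these arrays (3.77, 3.79, 3.98 and 3.76 on ketogenic arrays, against 4.02, 4.25, 4.11 and 4.02 on fed arrays), where the 95th percentile of 862 odorant receptor genes, mostly silent outside the nose, was 3.96. These 3 markers were named after their values were seen.

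Markers of other cell types moved in both directions, by less than those of astrocytes in their means. The 24 neuron markers averaged 7.59, 7.61, 7.57 and 7.59 on ketogenic arrays, against 7.46, 7.35, 7.49 and 7.46 on fed arrays, so that all ketogenic arrays were above all fed arrays, and 20 of the 24 were positive (median 0.15, 0 past the threshold). The 13 oligodendrocyte markers averaged 7.25, 7.38, 7.53 and 7.41 on ketogenic arrays, against 7.60, 7.55, 7.70 and 7.76 on fed arrays, again with no overlap (median -0.30, -0.19 without fed array 3 and -0.17 without ketogenic array 1, 0 past the threshold). The 16 microglia markers overlapped between diets (median 0.15, 0 past the threshold), and leaving out fed array 3 or ketogenic array 2 brought their median to 0.04 or 0.07. No marker among these 3 lists passed at an adjusted p of 0.05, while at an unadjusted p under 0.05 there were 8 higher and 1 lower in the neuron list, 6 lower in the oligodendrocyte list and 0 in the microglia list.

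Among vascular, precursor and border cells, single markers fell. Of 10 oligodendrocyte precursor markers Pdgfra, a growth factor receptor gene, fell (-0.38, adjusted p = 0.0328), and the list averaged 5.79, 5.75, 5.92 and 5.83 on ketogenic arrays, against 6.10, 5.87, 6.14 and 6.02 on fed arrays. Of 20 endothelial and mural markers Pdgfrb, a receptor gene of pericytes, fell (-0.62, adjusted p = 0.0257). Among the members of that list 17 were negative and 3 positive. Rgs5, the highest (0.59), did not pass and was named after its values were seen. The list averaged 5.38, 4.86, 5.0 and 4.79 on ketogenic arrays, against 5.51, 5.61, 4.85 and 4.98 on fed arrays. That list split the arrays across diets, with ketogenic array 1 and fed arrays 1 and 2 high, and its median of -0.31 moved to -0.13 when fed array 2 was left out and to -0.15 when ketogenic array 4 was. Of 17 ependymal, choroid plexus and meningeal markers Fmod, a collagen-binding proteoglycan of fibroblasts, fell. It read 5.68, 5.54, 6.19 and 5.56 on ketogenic arrays, against 7.03, 6.69, 6.45 and 6.82 on fed arrays (-1.0, 2-fold lower, adjusted p = 0.0196), with ketogenic array 3 nearest to the fed arrays. Ketogenic array 3 was also the highest of its group for this list, whose median of -0.24 was -0.16, -0.16, -0.40 and -0.14 without ketogenic arrays 1, 2, 3 and 4. The part that these cell type differences had in the results for other genes was not tested.

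**Figure D4:**
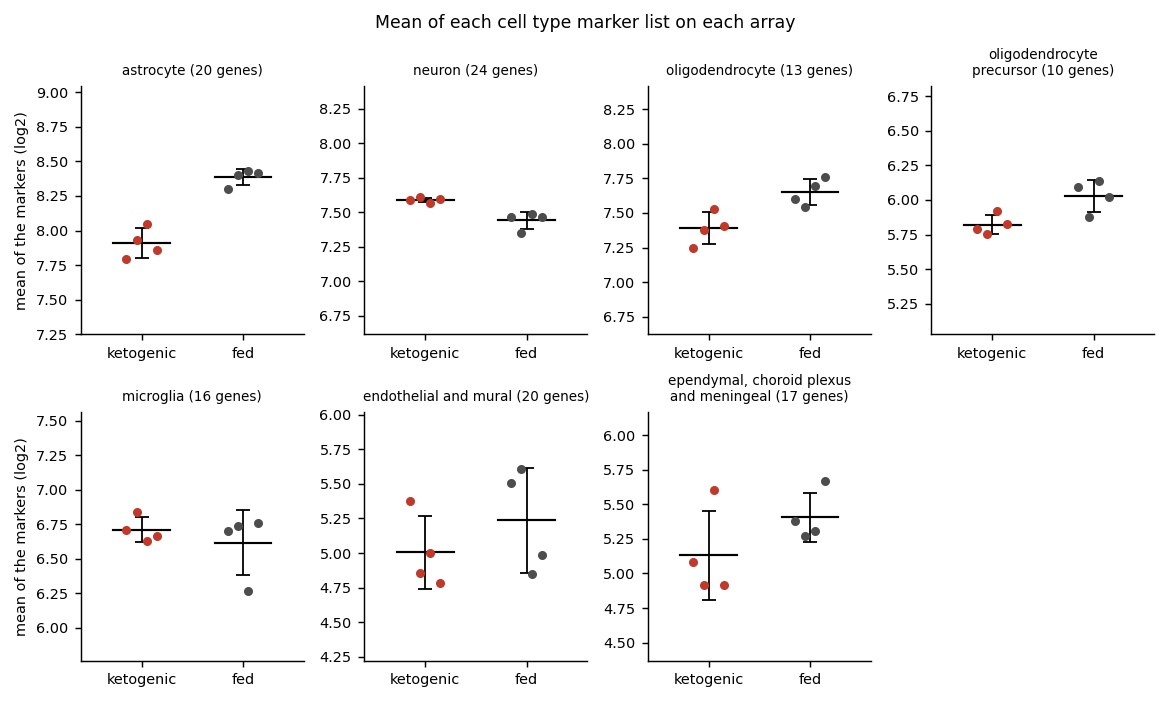
Mean log2 value over the measured markers of each cell type (y axis) on each of 4 ketogenic and 4 fed arrays (points), with the group mean and SD. All panels span the same range. Ketogenic arrays lie below fed arrays for astrocyte markers (at most 8.05, against at least 8.30) and above them for neuron markers. They also lie below for oligodendrocyte markers (at most 7.53, against at least 7.55). The groups overlap for oligodendrocyte precursor, microglia, endothelial and mural, and ependymal, choroid plexus and meningeal markers.

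Some genes with which astrocytes clear glutamate and carry potassium fell. Of 15 measured genes of glutamate, GABA and glutamine handling, 4 fell and 0 rose (median -0.37). Beside Slc1a3 these were the cystine-glutamate exchanger gene Slc7a11 (-0.73, adjusted p = 0.0195), the glutamine transporter gene Slc38a3 (-0.59, adjusted p = 0.0185) and Glud1, glutamate dehydrogenase (-0.40, adjusted p = 0.0332). Slc7a11 read 5.92, 6.09, 6.25 and 5.92 on ketogenic arrays, against 6.53, 6.93, 6.97 and 6.66 on fed arrays. Of 17 endfoot genes for potassium, water and bicarbonate, Mlc1, Slc4a4 and the inward rectifier gene Kcnj10 fell (median -0.26). Kcnj10 read 7.17, 7.26, 7.17 and 7.17 on ketogenic arrays, against 7.46, 7.68, 7.74 and 7.76 on fed arrays (-0.47, adjusted p = 0.0377), and it passed in 1 of the 8 fits. The call of Slc7a11 was also lost without fed array 3, that of Slc4a4 without fed array 3 or 4, those of Kcnj10 and Glud1 in 7 of the 8 fits, and that of Slc38a3 only without ketogenic array 1, 2 or 4.

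Connexins, chloride channels and the Tweety family did not share a direction. Of 17 such genes 7 were negative and 10 positive (median 0.03, and -0.02, 0.01 and 0.05 without fed array 2, ketogenic array 2 and ketogenic array 3). Ttyh1, a Tweety family gene of astrocytes, read 7.87, 7.63, 8.15 and 7.89 on ketogenic arrays, against 8.52, 9.48, 9.23 and 8.77 on fed arrays (-1.12, adjusted p = 0.032), and the median over its pair of probe sets gave -0.67. Gjb6 read 8.28, 8.31, 8.40 and 8.10 on ketogenic arrays, against 8.94, 9.08, 9.12 and 8.88 on fed arrays. Clcn3, a chloride-proton exchanger of endosomes and synaptic vesicles, was the only member to rise, at 6.47, 6.10, 6.01 and 6.31 on ketogenic arrays, against 5.61, 5.28, 5.44 and 5.27 on fed arrays (0.83, adjusted p = 0.0239). That rise was read from 1 of 3 probe sets, and the median over them gave 0.05 (adjusted p = 0.811). Ttyh1 and Clcn3 passed in 2 of the 8 fits that left out 1 array and Gjb6 in 4.

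Enzymes that oxidize aldehydes, fatty acid derivatives and amines had a list median as low as that of the astrocyte markers. The order of these lowest 2 medians turned without fed array 2 (-0.39 for the enzymes and -0.42 for the markers). Of 27 measured aldehyde, cytochrome P450 and phase II enzymes, 26 were negative, 7 fell and 0 rose, and the median log2 difference was -0.42 (between -0.45 and -0.37 when 1 array was left out). Cyp4f15, a P450 of the family that hydroxylates fatty acids and leukotrienes, read 6.20, 6.0, 6.15 and 6.25 on ketogenic arrays, against 7.02, 7.08, 7.86 and 7.52 on fed arrays (-1.22, standard error 0.20, 2.33-fold lower, adjusted p = 0.0251). Its neighbour in the family Cyp4f14 read 5.44, 5.53, 5.63 and 5.56 on ketogenic arrays, against 6.28, 6.23, 6.61 and 6.54 on fed arrays (-0.88, standard error 0.11, adjusted p = 0.0138). Cyp4f14 varied less among the fed arrays than Cyp4f15, for which fed arrays 3 and 4 were the higher pair, as they were for Etnppl. Because these P450 genes are close copies, their probe sets may share signal. Cyp2j9, a P450 of arachidonate metabolism (-0.86), and the soluble epoxide hydrolase gene Ephx2 (-0.74) also fell, as did the monoamine oxidase genes Maoa (-0.51) and Maob (-0.77) and Aldh7a1, which acts in lysine breakdown (-0.50). Maob was named after its values were seen. Without fed array 3 or 4 only 1 gene of the list passed, without ketogenic array 1, 2 or 4 it was 0, and without fed array 2 it was 4. The list's mean was 5.96, 6.04, 6.14 and 5.95 on ketogenic arrays, against 6.34, 6.54, 6.47 and 6.53 on fed arrays, a gap of like size to that of the astrocyte markers (differences of -0.45 and -0.48).

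Prodh and Cbs, enzymes of amino acid breakdown, had the falls that depended least on single arrays, while Gldc and Oat passed less often. Prodh, the first enzyme of proline breakdown in mitochondria, read 5.25, 5.34, 5.37 and 5.18 on ketogenic arrays, against 6.13, 6.14, 6.24 and 6.11 on fed arrays. Within each group its values lay close together, and the level was 1.82-fold lower on the ketogenic diet (log2 difference -0.87, standard error 0.07, 95% confidence interval -1.02 to -0.72, adjusted p = 0.00142). Leaving out 1 array gave an adjusted p of 0.00591 to 0.0141. Oat, which makes glutamate semialdehyde from ornithine, also fell (-0.44, adjusted p = 0.0224), and the 25 measured genes of proline, ornithine and branched-chain amino acid metabolism had a median of -0.13. Cbs, which joins homocysteine to serine, read 6.03, 5.99, 6.07 and 5.91 on ketogenic arrays, against 6.66, 6.69, 6.73 and 6.88 on fed arrays (-0.74, standard error 0.07, adjusted p = 0.00679). Among the 24 measured genes of serine, glycine, folate and methionine metabolism, Aldh1l1 and Gldc, the decarboxylase of the glycine cleavage system, fell beside it (list median -0.16). Gldc read 6.12, 5.98, 6.0 and 5.64 on ketogenic arrays, against 6.61, 6.95, 6.42 and 6.47 on fed arrays (-0.67, adjusted p = 0.0412), and it lost its call with any 1 of the 8 arrays left out (adjusted p = 0.0615 to 0.129). Oat lost its call without fed array 3 or 4 in addition to ketogenic array 1, 2 or 4.

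Nearly all genes of fatty acid oxidation were negative, and the share of them that fell was above that of all genes (0.765%). Of 21 measured genes for oxidizing fatty acids and for handling ketone bodies, 20 were negative, 4 fell and 0 rose (median -0.22), and the list's mean was 5.90, 5.97, 5.99 and 5.90 on ketogenic arrays, against 6.12, 6.20, 6.22 and 6.22 on fed arrays. Decr1, which prepares unsaturated fatty acids for oxidation, read 6.50, 6.59, 6.58 and 6.55 on ketogenic arrays, against 7.01, 7.0, 7.09 and 7.22 on fed arrays (-0.52, standard error 0.07, adjusted p = 0.0141). Hadhb, a subunit of the mitochondrial trifunctional protein, read 7.22, 7.16, 7.32 and 6.94 on ketogenic arrays, against 7.68, 8.0, 7.93 and 7.66 on fed arrays (-0.66, adjusted p = 0.0206). In both the groups did not overlap, as in every gene past the threshold. Cpt1c, a neuronal relative of Cpt1a named after its values were seen, was the one positive member (0.41), and relative to the astrocyte markers on the same arrays 0 of the 21 were lower and 12 higher, where 81.9% of all genes were higher. Acaa2, the thiolase of the same pathway (-0.53, adjusted p = 0.0377), and Cpt1a, which admits fatty acids to mitochondria, were the other 2 to fall. Cpt1a read 5.37, 5.43, 5.54 and 5.50 on ketogenic arrays, against 6.0, 6.17, 5.93 and 5.82 on fed arrays (-0.52, adjusted p = 0.0371), and in the 8 fits that left out 1 array its adjusted p ran from 0.0536 to 0.126. The ketone body enzymes Oxct1 (-0.14, adjusted p = 0.408) and Bdh1 (-0.06, adjusted p = 0.866) were named after their values were seen and did not pass. Acaa2 passed in 1 of the 8 fits, Hadhb in 4 and Decr1 in 5.

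The fatty acid receptor and the enzymes that activate or release fatty acids gave a mixed account. Ppara, the nuclear receptor that drives fatty acid oxidation, had the lowest value of the PPAR and fasting response list without passing, and it was named after its values were seen. It read 6.42, 5.22, 6.67 and 6.08 on ketogenic arrays, against 7.11, 7.10, 7.29 and 7.20 on fed arrays (-1.08, standard error 0.25, adjusted p = 0.0858). The ketogenic arrays were spread over more than 1 log2 unit, with ketogenic array 2 the lowest, while the fed arrays lay close together. With the median over its 4 probe sets Ppara was at -0.57 (adjusted p = 0.0395). Cpt1a was the only one of the 15 genes of that list to pass (median -0.02, between -0.05 and -0.00 when 1 array was left out). Of 19 genes of fatty acid uptake, binding and activation, the thioesterase Acot11 (-0.77, adjusted p = 0.0138) and Acsbg1, the acyl-CoA synthetase named bubblegum (-0.62, adjusted p = 0.0185), fell. Acot11 read 6.42, 6.44, 6.57 and 6.10 on ketogenic arrays, against 7.22, 7.09, 7.11 and 7.21 on fed arrays. That list's median of -0.09 moved to -0.18, -0.05 and -0.16 when fed array 2, fed array 4 and ketogenic array 2 were left out in turn. Acsbg1 also lost its call without fed array 3 or 4.

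Falls among lipid synthesis genes included those of the regulators Srebf1 and Srebf2. Of 19 genes of fatty acid synthesis and desaturation, 15 were negative (median -0.27) and 1 fell, Srebf1, the transcription factor that drives them. Srebf1 read 6.23, 6.07, 6.35 and 6.20 on ketogenic arrays, against 6.54, 6.61, 6.69 and 6.66 on fed arrays (-0.42, adjusted p = 0.0361). Of 19 genes of cholesterol synthesis, 13 were negative (median -0.21, -0.14 without fed array 2 or 4), and Srebf2, the transcription factor of that pathway (-0.46), and the demethylase gene Cyp51 (-0.53, adjusted p = 0.0484) fell. For Srebf2 the median over all 5 probe sets gave -0.01 (adjusted p = 0.951). Of 21 genes that move cholesterol and apolipoproteins, the exporter gene Abca1 and Npc1, which releases cholesterol from lysosomes (-0.38, adjusted p = 0.0371), fell. Abca1 read 7.09, 7.11, 7.10 and 6.88 on ketogenic arrays, against 7.60, 7.86, 7.47 and 7.64 on fed arrays (-0.60, adjusted p = 0.0206). The median of this list was -0.06, and -0.03, -0.10 and -0.13 without fed array 1, fed array 2 and ketogenic array 3. Srebf2, Cyp51 and Npc1 lost their call whichever of the 8 arrays was left out and Srebf1 in 7 cases, while Abca1 passed in 4. With the median over its 4 probe sets Abca1 had a log2 difference of -0.49 and did not pass (adjusted p = 0.141). Cyp51 has 1 probe set, so its log2 difference was the same in that fit, and it lay at the threshold (adjusted p = 0.0501).

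Few genes of glucose and mitochondrial energy metabolism passed the test. Of 27 genes that handle glucose, glycogen and lactate, Pygm, a glycogen phosphorylase gene, was the only one to pass. It read 6.63, 6.61, 6.82 and 6.42 on ketogenic arrays, against 7.15, 7.33, 7.28 and 7.37 on fed arrays (-0.67, standard error 0.09, adjusted p = 0.0141). Phka1, a subunit of the kinase that activates glycogen phosphorylase, fell as well, at 5.24, 5.45, 5.55 and 5.33 on ketogenic arrays, against 6.18, 6.70, 6.22 and 6.18 on fed arrays (-0.93, standard error 0.12, adjusted p = 0.0138). Like every gene past the threshold, both were clear of overlap, and fed array 2 was the highest fed array for Phka1. At an unadjusted p under 0.05 the glucose list held 7 lower and 3 higher genes, against 6.53% and 7.39% of all genes. The groups did not overlap in 10 of its 27, which held for 10.7% of all genes. The median of this list was -0.06, and -0.09, -0.01, -0.13 and -0.09 without fed arrays 1, 2 and 4 and ketogenic array 2. Of 28 genes of pyruvate entry and the tricarboxylic acid cycle, Suclg2, a subunit of succinyl-CoA ligase, and Idh2, the mitochondrial isocitrate dehydrogenase (-0.42, adjusted p = 0.0332), fell (median -0.04, and -0.07, -0.01 and -0.08 without fed array 1, fed array 2 and ketogenic array 2). Suclg2 read 5.88, 6.02, 6.37 and 6.07 on ketogenic arrays, against 6.83, 7.18, 6.97 and 6.64 on fed arrays (-0.82, adjusted p = 0.0206, -0.59 with the median over its 2 probe sets). Of 35 subunits of oxidative phosphorylation 0 passed by limma and 1 was past an unadjusted p of 0.05, Ndufs3 (0.21), with the members between -0.13 and 0.21.

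**Figure D5:**
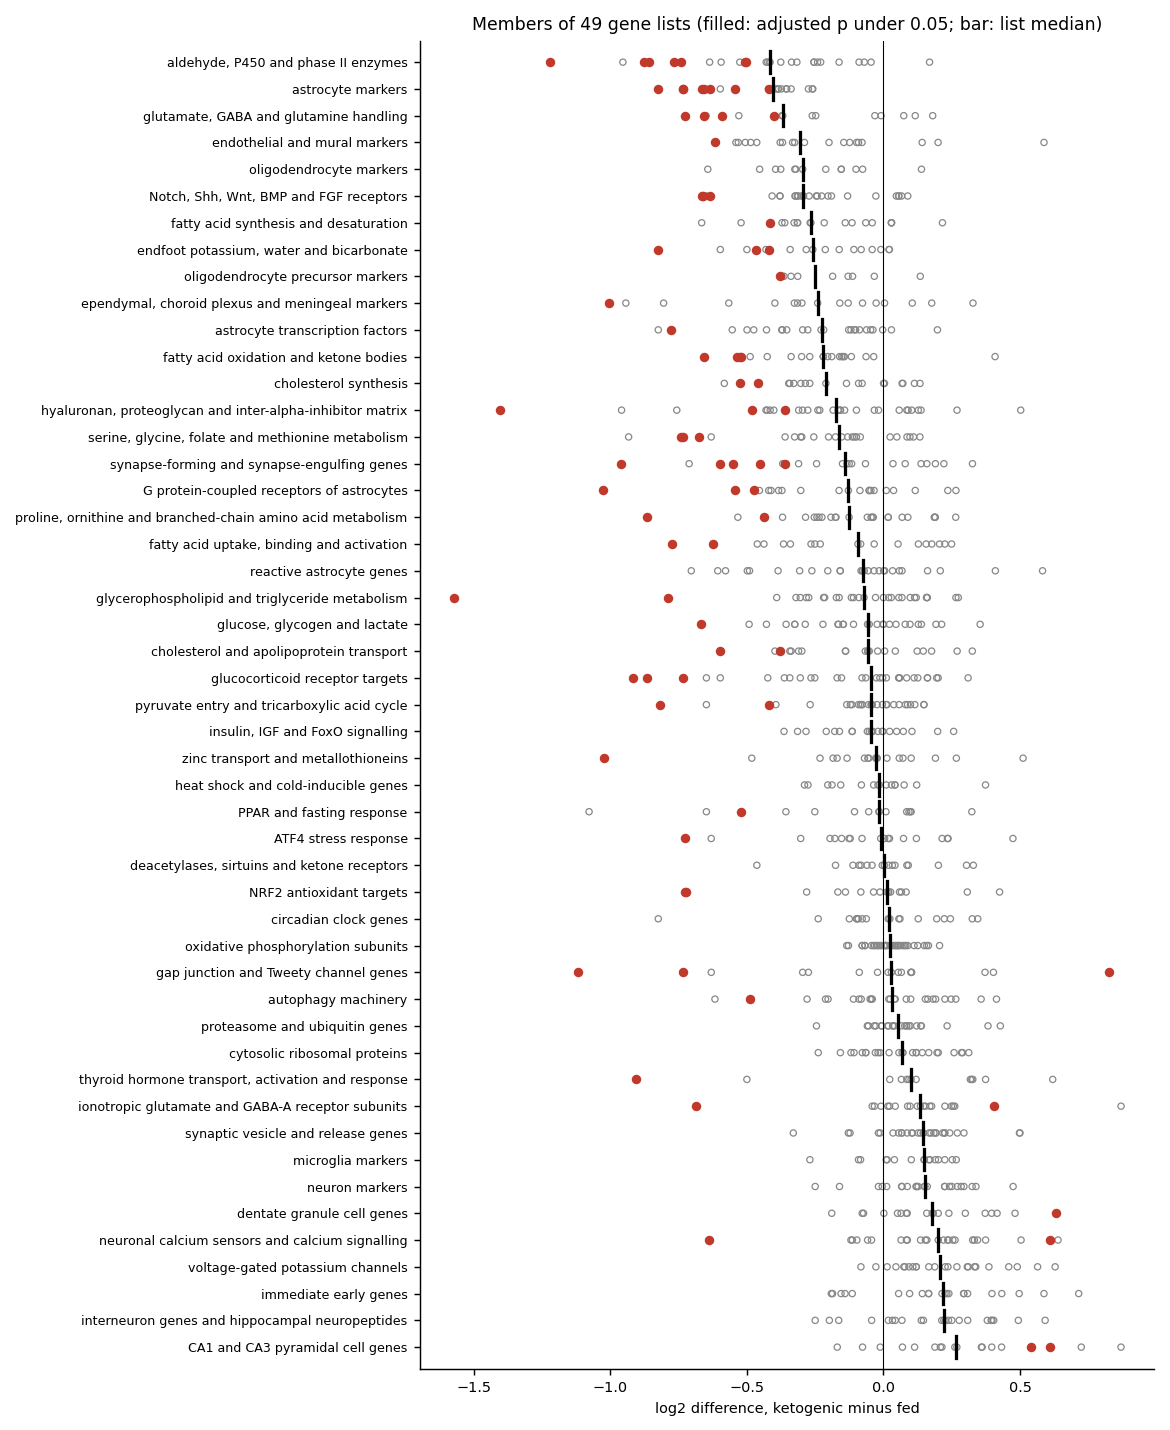
Log2 difference, ketogenic minus fed (x axis), of each measured member of 49 gene lists (rows, ordered by their median), with members past an adjusted p of 0.05 filled and the median as a bar. Medians run from -0.42 for aldehyde, P450 and phase II enzymes to 0.26 for CA1 and CA3 pyramidal cell genes, and filled points lie mostly left of 0.

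Several receptors through which astrocytes sense vessels, neurons and neighbours fell. Ednrb, the endothelin receptor of astrocytes, read 8.79, 8.90, 9.11 and 8.79 on ketogenic arrays, against 9.67, 10.21, 9.90 and 9.92 on fed arrays (-1.03, standard error 0.13, 2.04-fold lower, adjusted p = 0.0138). Of 21 G protein-coupled receptors of astrocytes, Gpr37l1 and the sphingosine-1-phosphate receptor gene S1pr1 (-0.48, adjusted p = 0.0377) fell beside it (median -0.13). Agt, angiotensinogen, which astrocytes secrete, read 7.57, 7.71, 8.10 and 7.87 on ketogenic arrays, against 8.53, 8.46, 8.82 and 9.0 on fed arrays (-0.89, adjusted p = 0.0195). Of 28 receptors and modulators of the Notch, Shh, Wnt, BMP and FGF pathways, 23 were negative (median -0.29) and 3 fell. Fgfr3, the growth factor receptor of astrocytes, read 5.72, 5.76, 5.85 and 5.83 on ketogenic arrays, against 6.29, 6.62, 6.37 and 6.43 on fed arrays (adjusted p = 0.0138). Notch1 read 5.49, 5.18, 5.21 and 5.25 on ketogenic arrays, against 6.06, 6.0, 5.87 and 5.84 on fed arrays (-0.66, adjusted p = 0.0147), and Notch2 had a log2 difference of -0.66 (adjusted p = 0.0332). As in every gene past the threshold, the groups did not overlap in these genes. The call of S1pr1 was also lost without fed array 1, 3 or 4, that of Gpr37l1 and Agt without fed array 3 or 4, and that of Notch2 without fed array 1, 2 or 4.

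Transcription factors of astrocytes were mostly negative with few calls. Of 24 measured, 22 were negative (median -0.22), and Sox2, a factor of neural stem cells and astrocytes, was the one that fell. Sox2 read 7.65, 7.79, 8.29 and 8.06 on ketogenic arrays, against 8.45, 8.94, 8.81 and 8.70 on fed arrays (-0.78, adjusted p = 0.0412). Pou3f2, a POU factor of the neural lineage outside that list, read 7.55, 7.94, 7.89 and 7.76 on ketogenic arrays, against 8.74, 9.09, 8.80 and 8.78 on fed arrays (-1.07, adjusted p = 0.0317, -0.94 with the median over its 2 probe sets). Both stayed past the threshold in few of the fits that left out 1 array, Sox2 in 2 and Pou3f2 in 1 of 8.

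Secreted and matrix proteins included the second largest fall. Itih3, a heavy chain of the inter-alpha-trypsin inhibitors that bind hyaluronan, read 7.17, 7.19, 7.45 and 7.08 on ketogenic arrays, against 8.23, 8.55, 8.52 and 9.20 on fed arrays. The lowest fed array was 0.79 above the highest ketogenic array (log2 difference -1.40, standard error 0.19, 2.64-fold lower, adjusted p = 0.0141). Of 30 matrix genes in the list 22 were negative (median -0.18), and the brain proteoglycan gene Bcan (-0.48, adjusted p = 0.0206) and the glypican gene Gpc5 (-0.36, adjusted p = 0.0371) fell beside Itih3. Of 22 genes with which astrocytes form or engulf synapses 5 fell and 0 rose (median -0.14). Thbs4, a thrombospondin, read 6.98, 7.33, 7.66 and 7.09 on ketogenic arrays, against 8.18, 8.48, 8.05 and 8.18 on fed arrays (-0.96, adjusted p = 0.0457), and ketogenic array 3 was the nearest to the fed arrays. Megf10, an engulfment receptor, read 5.28, 5.16, 5.33 and 5.18 on ketogenic arrays, against 5.76, 5.86, 5.78 and 5.73 on fed arrays (-0.55, standard error 0.07, adjusted p = 0.0141). Axl, a receptor for dying cells (-0.45, adjusted p = 0.0185), fell too, and it had an adjusted p of 0.546 when its 2 probe sets were replaced by their median. Megf10 and Itih3 passed in 5 of the 8 fits that left out 1 array, Axl in 4, Bcan in 3, Thbs4 in 1 and Gpc5 in 0.

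The lists of zinc, redox and thyroid hormone genes each held 1 or 2 falls and 0 rises. Slc39a12, a zinc importer of astrocytes, read 7.33, 7.35, 7.79 and 7.33 on ketogenic arrays, against 8.23, 8.76, 8.51 and 8.39 on fed arrays (-1.02, standard error 0.13, 2.03-fold lower, adjusted p = 0.0138). It was the only one of 20 genes of zinc transport and metallothioneins to pass (median -0.03). Of 17 NRF2 antioxidant targets, Slc7a11 and the quinone reductase gene Nqo1 fell against a list median of 0.01 (between -0.03 and 0.03 when 1 array was left out). Nqo1 read 8.01, 8.01, 8.17 and 7.94 on ketogenic arrays, against 8.63, 8.60, 8.72 and 9.07 on fed arrays (-0.72, adjusted p = 0.0385), and lost its call in all 8 fits that left out 1 array. Slco1c1, which carries thyroxine into astrocytes and brain endothelium, read 7.33, 7.22, 7.56 and 6.82 on ketogenic arrays, against 8.03, 8.54, 7.93 and 8.06 on fed arrays (-0.91, adjusted p = 0.0412). The other 12 measured genes of thyroid hormone transport and action did not pass (list median 0.10, 0.03 without fed array 2). Of the 13 measured, 11 were positive, and at an unadjusted p under 0.05 the list held 4 higher and 2 lower genes.

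Of 30 targets of the glucocorticoid receptor, 3 fell and 0 rose. These were Prodh, Gjb6 and Folh1, the peptidase that frees glutamate from N-acetylaspartylglutamate, and the list had a median of -0.05, and of -0.03, -0.07, -0.11 and -0.01 without fed array 1, fed array 2, ketogenic array 3 and ketogenic array 4. Folh1 read 4.62, 4.65, 5.03 and 4.75 on ketogenic arrays, against 5.52, 5.82, 5.76 and 5.62 on fed arrays (-0.92, adjusted p = 0.0317), and passed in 1 of the 8 fits. By limma 0 of 18 circadian clock genes passed (3 at an unadjusted p under 0.05), nor did any of 21 genes of insulin, IGF and FoxO signalling (4), 16 heat shock and cold-inducible genes (1) or 27 reactive astrocyte genes (9). The medians of those 4 lists lay between -0.08 and 0.02. Of the 9 reactive astrocyte genes 8 were lower and 1 higher, where 6.53% of all genes were lower. In that list 8 of the 27 measured genes lay below background, and a further 8 were not measured. Rorb, a clock-linked nuclear receptor that is also an astrocyte factor, had a log2 difference of -0.82 with a standard error of 0.30 (adjusted p = 0.255), since fed arrays 2 and 4 were far above fed arrays 1 and 3 (8.43, 8.73, 9.23 and 9.19 on ketogenic arrays, against 9.03, 10.52, 9.27 and 10.07 on fed arrays). Of 22 immediate early genes, which activity induces within minutes, 17 were positive (median 0.22) and 0 passed, with 8 past an unadjusted p of 0.05. The lowest p among them belonged to Dusp5, a phosphatase of ERK (0.50, adjusted p = 0.0579), and Gadd45b (0.59, adjusted p = 0.0612).

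Some of the leading falls were those of genes outside the lists. Prex2, an exchange factor that activates Rac, read 8.93, 8.84, 9.10 and 9.16 on ketogenic arrays, against 9.77, 10.13, 9.97 and 9.96 on fed arrays (-0.95, standard error 0.12, adjusted p = 0.0138). Tst, a sulfurtransferase of mitochondria, read 8.90, 8.91, 9.32 and 9.04 on ketogenic arrays, against 9.74, 9.98, 9.97 and 9.91 on fed arrays (-0.86, adjusted p = 0.0385). Fgd6, an exchange factor for Cdc42, read 5.26, 5.44, 5.58 and 5.43 on ketogenic arrays, against 6.01, 6.18, 6.07 and 6.07 on fed arrays (-0.65, adjusted p = 0.0138). Prex2 and Fgd6 passed in 5 of the 8 fits that left out 1 array and Tst in 1. Ccdc190, which encodes a coiled-coil protein, had a log2 difference of -1.10 (adjusted p = 0.0187), and Susd5 one of -0.88 (adjusted p = 0.0361, 1 of 8 fits, and adjusted p = 0.079 by the median of its probe sets). The fall of Prdm11 (-0.97, adjusted p = 0.0361) was read from 1 of 7 probe sets, and the median over them had the opposite sign (0.25, adjusted p = 0.698).

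Genes of hippocampal neurons were among the rises. Hpca, a calcium sensor of pyramidal neurons, read 8.52, 8.57, 8.50 and 8.46 on ketogenic arrays, against 8.02, 7.70, 7.89 and 8.0 on fed arrays (0.61, standard error 0.09, adjusted p = 0.0195). Neurod1, a transcription factor of dentate granule cells, read 6.18, 6.04, 6.23 and 5.98 on ketogenic arrays, against 5.46, 5.31, 5.60 and 5.56 on fed arrays (0.63, adjusted p = 0.0386). Spink8, a serine protease inhibitor gene of the CA1 list, read 7.17, 7.27, 7.21 and 7.40 on ketogenic arrays, against 6.83, 6.59, 6.64 and 6.83 on fed arrays (0.54, adjusted p = 0.0412). As in every rise past the threshold, the ketogenic arrays lay above all fed arrays in each. Neurod1 and Spink8, like Gabra5 below, lost their call in all 8 fits that left out 1 array. Gabra5, the hippocampal GABA-A receptor subunit, rose as well (8.68, 8.82, 8.72 and 8.80 on ketogenic arrays, against 8.25, 8.36, 8.41 and 8.38 on fed arrays, 0.41, adjusted p = 0.041), whereas Grin2c, the glutamate receptor subunit found in astrocytes, fell (5.63, 5.58, 5.72 and 5.46 on ketogenic arrays, against 6.26, 6.17, 6.42 and 6.29 on fed arrays, -0.69, adjusted p = 0.0309). Of 18 CA1 and CA3 genes 2 rose and 15 were positive (median 0.26, between 0.23 and 0.31 when 1 array was left out), and of 19 dentate granule cell genes 1 rose and 16 were positive (median 0.18, 0.11 without ketogenic array 1). These lists moved in the same direction as the neuron markers, whose mean was 0.15 higher on the ketogenic arrays. Whether the rises arose in astrocytes or from neuronal mRNA carried over into the pull-downs was not tested.

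Other neuronal lists had positive medians, and 3 of them held no calls. By limma 0 of 23 interneuron and neuropeptide genes, 0 of 29 synaptic vesicle genes and 0 of 24 voltage-gated potassium channel genes passed, with 8, 8 and 9 past an unadjusted p of 0.05. Their medians were 0.22, 0.15 and 0.21, and that of the interneuron list was 0.13 without fed array 2. Of 25 neuronal calcium sensors and calcium signalling genes, 19 were positive (median 0.20, 0.13 without fed array 2), Hpca rose, and Itpr2, the calcium release channel that astrocytes use, fell (-0.64, adjusted p = 0.0371, lost in all 8 fits that left out 1 array). The vesicle gene Cplx2 read 9.15, 9.36, 9.07 and 9.14 on ketogenic arrays, against 8.72, 8.28, 8.85 and 8.87 on fed arrays (0.50, adjusted p = 0.108), and fed array 2 was the lowest array for it.

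The largest rise among named genes above background was that of Vsig2, a membrane protein of the immunoglobulin family, at 6.14, 6.33, 6.46 and 6.22 on ketogenic arrays, against 5.90, 5.15, 5.32 and 5.42 on fed arrays (0.84, adjusted p = 0.0369). Its fed array 1 lay below the lowest ketogenic array, but nearer to the ketogenic arrays than to the other fed arrays. Nsmce3, a subunit of the SMC5-SMC6 complex of DNA repair, was the rise that passed most often, in 5 of the 8 fits. It read 7.80, 8.02, 7.88 and 7.85 on ketogenic arrays, against 7.45, 7.26, 7.36 and 7.41 on fed arrays (0.52, standard error 0.07, adjusted p = 0.0141). Tmem121b (0.58), Lingo3 (0.53), Plekha2 (0.49), the Nogo receptor relative Rtn4rl1 (0.47) and Olfml2b (0.46) also rose. With the median over its 2 probe sets Plekha2 did not pass (adjusted p = 0.0999). Rtn4rl1 has 1 probe set, so its log2 difference was the same in that fit, but its adjusted p was 0.0512. Dmtn, an actin-bundling protein, rose with its highest probe set (0.52, adjusted p = 0.0377), but the median over its 3 probe sets was -0.05 (adjusted p = 0.953). Vsig2, Dmtn, Plekha2, Rtn4rl1 and Olfml2b passed in at most 2 of the 8 fits that left out 1 array, and Tmem121b and Lingo3 in 3.

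Some genes were lower by more than the mean of the astrocyte markers on the same arrays. Single markers had log2 differences from -0.82 (Mlc1) to -0.26 on the deposited scale. When each array was set relative to its own mean over the 20 astrocyte markers, the median of all genes moved up by 0.48. On this scale Etnppl had a log2 difference of -1.09 (standard error 0.18), Itih3 of -0.92 (0.16) and Cyp4f15 of -0.74 (0.18). Ednrb (-0.54, standard error 0.11), Slc39a12 (-0.54, 0.11), Prex2 (-0.47, 0.11), Prodh (-0.39, 0.09) and Cyp4f14 (-0.40, 0.10) were lower too. These genes were taken from the leading falls on the deposited scale, so lying below the marker mean was largely fixed by that choice. In all, 52 genes were lower on this scale at an adjusted p of 0.05 (0.257%), and 40 of them were also past the threshold on the deposited scale. Gpr50 (-1.16), the lowest of the 52, and C2cd4d (-0.93) were not among the 40, and were named after their values were seen. Since 16592 genes (81.9%) passed as higher after that shift, the adjustment hardly corrected the p-values, so the 52 are given as a description only. The astrocyte markers were chosen with earlier results of these data known, and 3 of the 52 belong to that list.

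Lists of genes that every cell uses had medians close to 0 on the deposited scale. Of 25 cytosolic ribosomal protein genes and 24 proteasome and ubiquitin genes, limma called 0, with 0 and 1 past an unadjusted p of 0.05, and their medians were 0.07 (0.01, 0.12 and 0.03 without fed array 2, fed array 4 and ketogenic array 2) and 0.05 (0.02 and 0.03 without fed array 1 and ketogenic array 2). Of 26 genes of autophagy the protease gene Atg4a fell (-0.49, adjusted p = 0.0471, 1 of 8 fits, and adjusted p = 0.0886 by the median of its probe sets). The autophagy list had a median of 0.03 (0.02 without fed array 2 and 0.01 without fed array 3). Its members ran from -0.62 to 0.41, with 4 lower and 3 higher at an unadjusted p under 0.05. Of 17 class I histone deacetylases, sirtuins, acetyltransferases and ketone or lactate receptors 0 passed (2 at an unadjusted p under 0.05). The 19 genes of the ATF4 stress response held 1 fall, that of Slc7a11, and had a median of -0.01 (between -0.05 and 0.01 when 1 array was left out).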

How the data were processed

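Astrocyte ribosome pull-downs from mouse hippocampus were amplified with the NuGEN Pico WTA v2 kit and hybridized to Affymetrix mouse exon arrays. The authors deposited 1 log2 value per probe set and array. Their values came from RMA, which corrects background, quantile-normalizes and summarises probes, in Partek, with build mm9, per the submitters' processing notes. Versions are not given in the sources used here. The log base is not stated and was read as log2. Quantile normalization gives all arrays nearly the same distribution, so differences are relative to the other genes on an array.

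Of 115830 probe sets, 25539 were paired with 1 gene symbol in the platform annotation, 2300 with several and 87991 with none. Only those with 1 symbol were used, which gave 20259 genes. A gene with several sets (3109 genes) was read from the set of highest mean across the 11 arrays. The 95th percentile of odorant receptor genes (3.96) marked background. Differences between ketogenic and fed arrays came from limma 3.58.1 in R 4.3.3, with a mean per diet and fasted arrays sharing only the estimate of spread. P-values were adjusted by Benjamini-Hochberg over all genes, with a threshold of 0.05. The procedure was tested on simulated data. Tables were summarised in Python 3.11.15. The number of arrays, 4 per diet, limits the precision.

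The genes named are the 20 largest falls and 12 largest rises above background that passed and have an established symbol, up to 12 that passed most often when 1 array was left out, up to 6 passing members of each of 49 gene lists by lowest p (the 2 of lowest p where none passed), and Aldh1l1 and Etnppl. Others are said to have been chosen after their values were seen. The comparison, lists and rules were chosen with earlier results of these data known, so no list was given a set test or a p-value. Alternatives were the 8 arrays alone, arrays centred on their medians, array weights, a filter at background, the median over a gene's probe sets, a replicate block, the methods' t-test and fits without single arrays.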

Additional observations from a re-analysis of the deposited data

Results flagged for a closer look

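In each group of 4 arrays, the values of the named genes and the means of the lists were searched for 1 array far from the other 3 by Dixon's test. Of 318 such groups 16 held one, and chance gives about 1 in 20. On ketogenic arrays, Abca1 was low on array 4 (6.88), Kcnj10 high on array 2 (7.26) and the ribosomal protein gene Rplp2 high on array 1 (5.70). Ketogenic array 3 was high for Slc39a12 (7.79), for Slc4a4 (6.54) and for the mean of the Notch, Shh, Wnt, BMP and FGF list (5.35). Ketogenic array 1 was high for the mean of the calcium sensor and signalling list (7.43).

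Among fed arrays, array 1 was low for Ephx2 (7.54) and for the oligodendrocyte enzyme gene Aspa (5.96). Array 3 was low for the mean of the microglia markers (6.27), and array 4 was high for Ccdc190 (8.23) and for the mean of the clock genes (6.61). Fed array 2 was high for Phka1 (6.70) and for the mean of the serine, glycine, folate and methionine list (5.95), and low for the means of the thyroid hormone (5.97) and voltage-gated potassium channel lists (6.17). With 4 of the 16, fed array 2 was the array with the most, though 16 of 318 is about the share that chance gives. Separately, fed array 2 had the lowest correlation with the other arrays.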

How the results depend on the processing

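The count of genes past the threshold, 179 with 24 higher and 155 lower, was 79 with only the 8 ketogenic and fed arrays (7 higher and 72 lower), 387 with array weights (89 and 298), 281 among genes above background (58 and 223) and 12 of 2760 at an unadjusted p under 0.05 with the methods' t-test (4 and 8). Centring each array on its median gave 41 higher, and leaving out fed array 2 and fasted array 2 together gave 40 higher. Leaving out 1 array gave 1 to 170 genes, with 0 to 15 higher and 1 to 156 lower. With the replicate block 1 gene passed, with 0 higher and 1 lower (Prodh, adjusted p = 0.0485). Deviations from the group mean had correlations of -0.07 to 0.09 between same-numbered ketogenic and fed arrays. Between different-numbered arrays they ran from -0.09 to 0.07. The labels do not say whether the numbers mark pairs, and these few correlations cannot exclude a shared batch. Of the 81 named genes that passed, 45 kept their call with only 8 arrays, 74 with centred arrays, 81 with weights, 81 above background, 70 with the median over probe sets, 1 with the block, 4 with the methods' t-test, and 1 to 62 with 1 array left out. With the median over probe sets Dmtn (-0.050) and Prdm11 (0.25) changed sign. The count lower relative to the astrocyte markers lay between 36 and 59. The cause of these shifts was not tested. Signal over background limits low genes, with 34.8% of genes below the odorant receptor level.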

Other observations

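The genes below lie outside the rule for named genes and were chosen after their values were seen, and all passed an adjusted p of 0.05 with limma. Among them are enzymes and carriers of amino acids and sulfur compounds. Slc25a18, the mitochondrial glutamate carrier of astrocytes, read 7.57, 7.56, 7.80 and 7.41 on ketogenic arrays, against 8.24, 8.33, 8.43 and 8.23 on fed arrays (log2 difference -0.72, adjusted p = 0.017). Aass, the first enzyme of lysine breakdown, read 4.12, 4.14, 4.19 and 4.12 on ketogenic arrays, against 4.59, 4.64, 4.79 and 4.73 on fed arrays (-0.55, adjusted p = 0.0141). Both passed in 5 of the 8 fits that left out 1 array. Slc7a10, the alanine-serine-cysteine transporter of astrocytes (-0.56), Sardh, sarcosine dehydrogenase (-0.43), Oplah, which returns oxoproline to glutamate (-0.46), and Sqor, which oxidizes hydrogen sulfide (-0.69), fell too.

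Other genes that fell have known roles in adhesion or in macrophages, for which no list was counted, while 13 of the 16 microglia markers were positive. The laminin gene Lama2 had a log2 difference of -0.71 (adjusted p = 0.0141), Anxa5 one of -0.68, the kindlin gene Fermt2 one of -0.68, and the integrin genes Itgb8 and Itgav ones of -0.47 and -0.46. Mrc1, a receptor of border macrophages, read 4.52, 4.67, 4.96 and 4.61 on ketogenic arrays, against 5.66, 5.55, 5.10 and 5.26 on fed arrays (-0.70, adjusted p = 0.0371), and Pf4, which those cells also express, read 4.83, 4.51, 4.88 and 4.23 on ketogenic arrays, against 5.36, 5.34, 5.67 and 5.43 on fed arrays (-0.84, adjusted p = 0.0443). Of these, Mrc1 and Pf4 passed in 2 and 1 of the 8 fits that left out 1 array, and all genes in this paragraph lost their call without ketogenic array 1, 2 or 4.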
